A study of Mus musculus with 4 samples.

Results

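Alveolar macrophages are the resident phagocytes of the air spaces. They clear surfactant lipid and inhaled particles, depend on GM-CSF signalling and the nuclear receptor PPAR gamma, and renew themselves locally with little input from blood. After a lung transplant those in the graft come from the donor, and the cells that meet the restored blood flow include them together with neutrophils and monocytes that arrive from the recipient. Resolvin D1 (RvD1) is a lipid derived from docosahexaenoic acid that belongs to a family of mediators known for limiting neutrophil influx and promoting the uptake of dying cells.

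The cells described here were 267 of the 24291 cells kept from the whole study, chosen by their transcripts. A member was a cell with 200 or more genes, no more than 10% of its UMIs (unique molecular identifiers, 1 per counted transcript) from mitochondrial genes, at least 4 UMIs summed over Marco, Krt79, Plet1, Atp6v0d2 and Ctsk, at least 1 UMI of Ear2 or Chil3, at most 2 UMIs summed over Ace, Adgre4 and Cd300e, and none of Cd3e or Cd79a. The members came from B6 mouse left lung grafts placed into recipients of the same strain after 60 min of storage at 4 °C and a further 45 min at 28 °C, and collected 2 h after transplantation. Leukocytes carrying the surface marker CD45 were profiled as 4 libraries: donor cells of RvD1-treated mice, donor cells of vehicle-treated mice, recipient cells of RvD1-treated mice and recipient cells of vehicle-treated mice. The dose was 200 ng of RvD1 per mouse, injected into a vein in 200 µL of vehicle (1% ethanol) just before the operation, and the labels' protocol names the recipient mouse as the one injected, while the series text speaks of treated grafts. Each library pooled 2 lungs and stands alone in its group. The labels give no genotype, age or sex.

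With 1 library per group no test between conditions was possible, no p-value is given, and every interval below covers counting error only. The RvD1 libraries had been counted with Cell Ranger 7.0.1 and the vehicle libraries with Cell Ranger 6.1.1, per the file headers, so treatment, software version, pool of lungs and sequencing library cannot be told apart in any comparison below. The 4 libraries held 5195 to 7836 barcodes and 42199775 to 61294707 UMIs, and the donor libraries kept 5092 cells (RvD1) and 5658 cells (vehicle). Pairs of libraries shared 4 to 15 barcodes. A single RvD1 donor member had a barcode that also occurred in the RvD1 recipient library, and no barcode was a member in both libraries of any pair.

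The members lay almost entirely in the donor libraries, and they took a smaller share of the RvD1 donor library. They numbered 40 of 5092 RvD1 donor cells (0.786%, exact Clopper-Pearson interval 0.562 to 1.07%), against 219 of 5658 vehicle donor cells (3.87%, 3.38 to 4.41%). In the recipient libraries they numbered 5 of 7623 RvD1 cells (0.0656%, 0.0213 to 0.153%) and 3 of 5918 vehicle cells (0.0507%, 0.0105 to 0.148%). The shares are of sorted and captured cells, so fewer cells in the lung, fewer cells surviving dissociation and fewer UMIs per cell cannot be told apart.

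The share depended on how many UMIs each cell had, because the rule counts raw UMIs. Members had a median of 10006.5 UMIs (range 1197 to 44628) in the RvD1 donor library, against 27396 UMIs (range 2066 to 79611) in the vehicle donor library, a ratio of medians of 0.365. The ratio was 0.834 for all donor cells that were not members, and among them 0.937 for neutrophils, 1.03 for classical monocytes, 0.932 for C1q-expressing macrophages and 0.978 for dendritic cells. The median marker sum, which the rule used, was 9.5 UMIs in RvD1 donor members and 101 UMIs in vehicle donor members. Just inside the limit, 10 RvD1 donor cells had a sum of exactly 4 UMIs, against 2 vehicle donor cells. Just outside it, at a sum of 3 UMIs, lay 4 RvD1 donor cells and 6 vehicle donor cells. When every cell was thinned to 1000 UMIs before the rule was applied, 11 RvD1 donor cells (0.216%) and 110 vehicle donor cells (1.94%) met it, so the smaller share in the RvD1 library was also seen at matched depth. A limit of 8 UMIs left 23 RvD1 donor cells (0.452%) and 211 vehicle donor cells (3.73%).

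**Figure D1:**
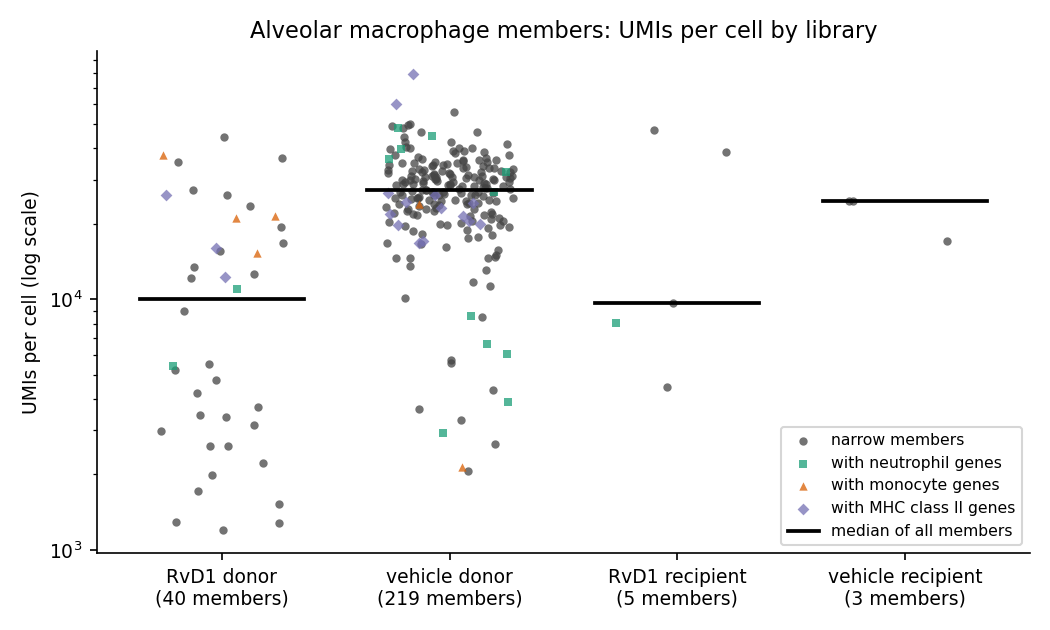
UMIs per cell (log scale) of every member in the 4 libraries, each point 1 cell, with the median of all members as a line. The RvD1 donor points spread from 1197 to 44628 UMIs with 16 of 40 cells under 5000, whereas 175 of the 219 vehicle donor cells lie at 20000 or more, and symbols mark the cells with transcripts of another lineage.

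The 40 RvD1 donor members were not 1 uniform population. The markers of other lineages showed that 9 of the 40 RvD1 donor members and 27 of the 219 vehicle donor members carried another cell type's transcripts at a high level. In 2 RvD1 and 11 vehicle donor members S100a8 and S100a9, the calprotectin subunits abundant in neutrophils, made up at least 0.5% of UMIs. In 4 RvD1 and 2 vehicle donor members the monocyte genes Vcan, Ccr2, Ly6c2 and Plac8 made up at least 0.1%. In 3 RvD1 and 14 vehicle donor members the MHC class II genes H2-Aa, H2-Ab1, H2-Eb1 and Cd74 made up at least 3%. The cells left over, 31 in the RvD1 donor library (0.609%, 0.414 to 0.863%) and 192 in the vehicle donor library (3.39%, 2.94 to 3.90%), are called narrow members here, and these limits were set after the values had been seen. The gap in depth was wider among them, with medians of 4760 UMIs (RvD1) and 28146 UMIs (vehicle) and a ratio of 0.169.

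The cells with other lineages' transcripts resembled alveolar macrophages to different degrees. The identity list, 23 genes of the alveolar macrophage programme such as Pparg, Fabp4, Lpl, Car4 and Siglecf, made up a median of 1.31% of UMIs in narrow RvD1 donor members and 1.64% in narrow vehicle donor members. In the members with MHC class II genes the list stood at 0.318% (RvD1, 3 cells) and 0.299% (vehicle, 14 cells), and in dendritic cells it took 0.302% of summed UMIs in the RvD1 and 0.311% in the vehicle donor library. Those MHC class II members also carried the dendritic cell chemokine gene Ccl22 at 4012 CPM (UMIs of a gene scaled to a common total, the same for every set of cells; RvD1) and 3023 CPM (vehicle), and Ccr7, the receptor that guides dendritic cells to lymph nodes, at 1509 CPM and 1002 CPM in the same order. In the 4 RvD1 members with monocyte genes the identity list stood at 0.484%, Marco, Krt79 and Ctsk were at 0, and Vcan reached 1153 CPM, Plac8 1823 CPM and Ccr2 754.4 CPM. In the 2 vehicle members with monocyte genes the identity list stood at 1.00%. In the members with neutrophil genes it stood at 0.993% (2 RvD1 cells, 0.648 and 1.34%) and 1.54% (11 vehicle cells), beside a median of 0.835% in RvD1 and 0.768% in vehicle neutrophils, so the list did not separate the 2 RvD1 cells from neutrophils. The label alveolar macrophages was therefore kept for the narrow members as a set, while the list did not set the other RvD1 members clearly apart from other cell types. Some narrow RvD1 cells also lay within the range of neutrophils on the list. Their lowest share was 0.288% and their lower quartile 0.875%, beside an upper quartile of 1.05% in RvD1 neutrophils. Single genes of the list did differ for the 2 RvD1 cells with neutrophil genes. Mrc1 stood at 671.0 CPM (11 UMIs) and Lpl at 366.0 CPM (6 UMIs) in them, against 6.90 and 4.38 CPM in RvD1 neutrophils. Fabp4 had 0 UMIs in the 2 cells and stood at 8.87 CPM in those neutrophils.

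Among narrow members the marker genes that chose them summed to 1.23% of UMIs in both libraries, and single genes differed in both directions. Chil3, which encodes the lectin Ym1, stood at 7441 CPM in RvD1 and 7400 CPM in vehicle donor narrow members. Ear2, an eosinophil-associated ribonuclease, stood at 1004 CPM in RvD1 and 959.4 CPM in vehicle members. Atp6v0d2, a proton pump subunit, stood at 1070 CPM (RvD1) and 1101 CPM (vehicle), and Plet1, a surface protein, at 1340 CPM (RvD1) and 1587 CPM (vehicle). The keratin gene Krt79 stood at 546.8 CPM in RvD1 and 396.9 CPM in vehicle members, and the protease gene Ctsk at 593.1 and 710.3 CPM. Marco, a scavenger receptor for bacteria and particles, was at 260.4 CPM in RvD1 and 107.7 CPM in vehicle members, but 1 cell held 52.2% of its RvD1 UMIs. These genes were part of the rule, so their levels are a description of what was chosen.

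The defining genes of other cell types were low or absent in narrow members of both libraries. Neutrophil markers summed to 0.0492% of UMIs in RvD1 and 0.0425% in vehicle members, monocyte markers to 0.0324% and 0.0550%, C1q and interstitial macrophage markers to 0.00174% and 0.00537%, and dendritic cell markers to 0.00289% and 0.00822%, RvD1 before vehicle in each pair. In RvD1 narrow members Vcan, Ccr2, F13a1, Flt3, Ccr7 and Cxcr2 had no UMI. Low shares of S100a8, S100a9, Vcan, Ccr2, Ly6c2, Plac8 and the MHC class II genes were used to choose narrow members. The low neutrophil, monocyte and dendritic cell sums are therefore in part a description of that choice. Over all members dendritic cell markers summed to 0.0750% of UMIs in RvD1 and 0.0390% in vehicle. The rule also asked for no UMI of Cd3e or Cd79a, so the T and B cell sums below depend in part on the rule. B cell, epithelial, endothelial and stromal, and eosinophil and mast cell markers each summed to at most 0.0130% in either library. T and NK cell markers summed to 0.0295% in RvD1 and 0.00361% in vehicle members. Their most abundant gene in RvD1 members was Gzma, a cytotoxic granule protease. A single RvD1 cell of 9018 UMIs held all 79 RvD1 Gzma UMIs and 74 of the 78 Ccl5 UMIs. The identity list made up 0.288% of that cell's UMIs, the lowest share among RvD1 narrow members, so its label is uncertain. If every S100a8 and S100a9 UMI were free RNA of the library's profile, free RNA would make up 0.493% of RvD1 and 0.920% of vehicle narrow member UMIs, and 10.5% and 4.87% over all members. Scrublet called 68 doublets in the RvD1 donor library, none of them members, and 131 in the vehicle donor library, 8 of them members.

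A second split within the RvD1 narrow members followed depth. Malat1, a long noncoding RNA kept in the nucleus and abundant in nearly every cell, was under 0.1% of UMIs in 16 of 31 RvD1 narrow members (51.6%, 33.1 to 69.9%), against 6 of 192 vehicle narrow members (3.13%, 1.16 to 6.68%). It had no UMI at all in 13 of the 31 RvD1 cells and in 3 of the 192 vehicle cells. Summed over narrow members, however, Malat1 was higher in RvD1, at 11220 CPM against 7883 CPM in vehicle (log2 ratio 0.51, 0.46 to 0.56). Its median share in cells of 5000 to under 20000 UMIs was 1.30% (RvD1, 9 cells) and 0.591% (vehicle, 29 cells). The 16 RvD1 cells low in Malat1 held 1197 to 5501 UMIs, a median ribosomal protein share of 17.3% and a median mitochondrial share of 1.21%, and each had Chil3 UMIs. The 15 RvD1 cells at or above 0.1% Malat1 held 3720 to 44628 UMIs, a ribosomal protein share of 5.48% and a mitochondrial share of 2.98%. The 186 vehicle cells at or above that limit had shares of 7.44% ribosomal protein and 2.69% mitochondrial UMIs. Low Malat1 was seen in 5 of 2208 RvD1 and 1 of 1725 vehicle neutrophils, whose medians were 5461.5 UMIs (RvD1) and 5831 UMIs (vehicle), and in 4 of 569 RvD1 and 6 of 638 vehicle classical monocytes. Among C1q-expressing macrophages it was seen in 4 of 34 RvD1 cells (11.8%, 3.30 to 27.5%) and 1 of 52 vehicle cells (1.92%, 0.0487 to 10.3%). The Malat1 limit was also set after the values had been seen.

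**Figure D2:**
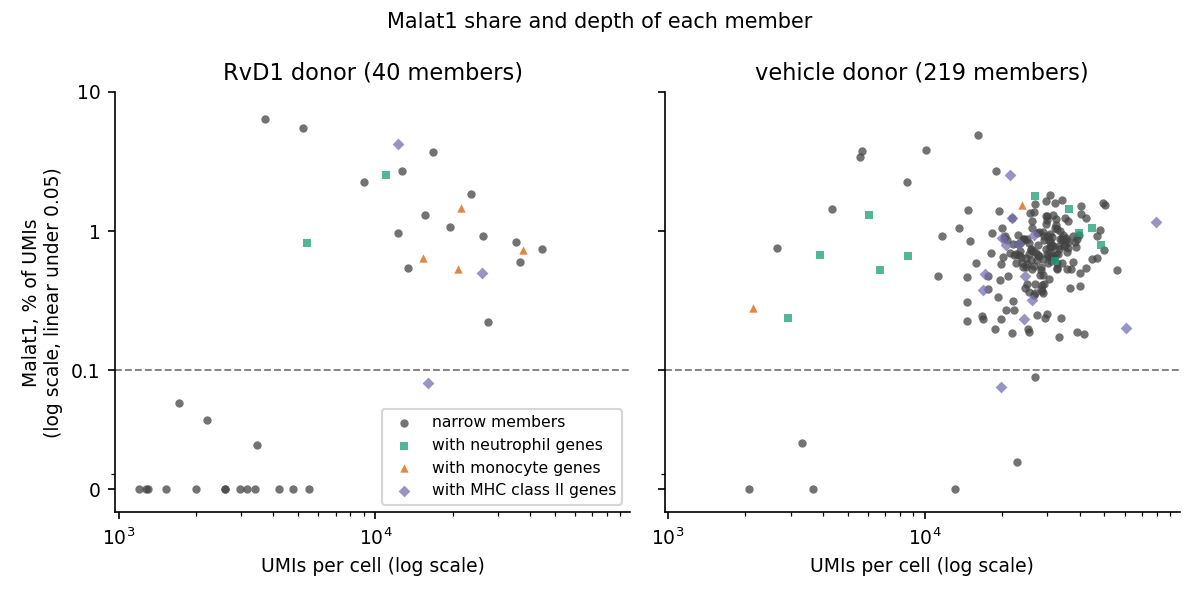
Malat1 as a percent of UMIs (log scale, linear under 0.05%) against UMIs per cell (log scale) for each member, RvD1 donor on the left and vehicle donor on the right, with the dashed line at 0.1%. The RvD1 panel has 13 cells at 0 Malat1, with up to 5501 UMIs, while 212 of the 219 vehicle cells lie above the line.

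Mitochondrial UMIs had a median of 2.24% in all RvD1 donor members and 2.67% in all vehicle donor members. Among narrow members of 20000 or more UMIs the medians were 2.20% (RvD1, 6 cells) and 2.67% (vehicle, 158 cells), among those of 5000 to under 20000 UMIs 4.77% (9 cells) and 3.09% (29 cells), and among those under 5000 UMIs 1.21% (16 cells) and 0.735% (5 cells), RvD1 before vehicle in each. No depth range therefore held more than a few percent of mitochondrial UMIs at its median, and the order of the libraries was not the same in the 3 ranges. Cells that failed only the limit of 10% numbered 0 in the RvD1 donor library and 3 in the vehicle donor library. At 1000 UMIs per cell, members had a median of 549.5 genes (RvD1) and 647 genes (vehicle), and narrow members with Malat1 had 627 genes (15 RvD1 cells) and 645 genes (186 vehicle cells), so most of the gap in gene number at full depth, 2768.5 against 4920 genes for all members, was not seen at equal depth.

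Over all members, UMIs were summed per library and the 1773 genes with a mean of at least 100 CPM over both libraries were compared. Taking 2-fold as the limit, RvD1 donor members had 51 higher genes (2.88%) and 52 lower genes (2.93%) relative to vehicle donor members, 103 (5.81%) in either direction. The higher genes were led by transcripts of the monocyte-like members. Vcan, a matrix proteoglycan made by monocytes, stood at 214.9 CPM in RvD1 and 4.85 CPM in vehicle members (log2 ratio 5.47), and 100% of its RvD1 UMIs came from the 9 cells with other lineages' transcripts. For Plac8 (log2 ratio 4.53) that share was 98.9%, for the interferon-induced membrane protein gene Ifitm3 (3.75) it was 99.2%, and for Ms4a6c (2.75) it was 92.6%. Vcan and Plac8 were among the genes that set those cells apart, so their shares largely follow from that choice. Ifitm3 and Ms4a6c were not used in it. Without those cells Vcan had no UMI left in RvD1 members, and Ifitm3 had 2 UMIs. Among the lower genes Hmox1 stood at 468.9 CPM in RvD1 and 1827 CPM in vehicle members (log2 ratio -1.96), Slc39a12 at 170.0 and 734.0 CPM (-2.11), and the transglutaminase gene Tgm2 at 234.5 and 635.6 CPM (-1.44). Crip1, a LIM domain protein gene, went with the same cells: it was higher in all RvD1 members (log2 ratio 1.88) and lower in RvD1 narrow members (-2.31). The split between higher and lower genes moved with scaling: it was 66 higher and 165 lower with each cell weighted equally, 149 and 278 with each cell thinned to 1000 UMIs, and 58 and 36 with ratios centred on the median. The median log2 ratio of all 1773 genes was -0.10, and it was -0.26 with cells weighted equally.

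The comparison was therefore repeated on narrow members, 345641 UMIs from 31 RvD1 donor cells and 5290675 UMIs from 192 vehicle donor cells. Past 2-fold, 48 of 1813 genes (2.65%) were higher and 40 (2.21%) lower in RvD1, 88 (4.85%) in either direction, and the median log2 ratio was -0.07. Most of the genes farthest above 0 rested on 1 cell. The proliferation genes Mki67 (225.7 CPM in RvD1 and 30.8 CPM in vehicle members, log2 ratio 2.87) and Top2a (205.4 and 33.1 CPM, 2.64) had 91.0% and 90.1% of their RvD1 UMIs in the deepest cell, of 44628 UMIs. Without that cell their log2 ratios were -0.41 and -0.51. The same cell held 62.9% of the UMIs of Hmgb2, a chromatin protein of dividing cells, whose log2 ratio was 2.67 with it and 1.44 without it. Txnip, an inhibitor of thioredoxin, had 79.2% of its RvD1 UMIs in another cell, and its log2 ratio of 2.48 was 0.32 without it.

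**Figure D3:**
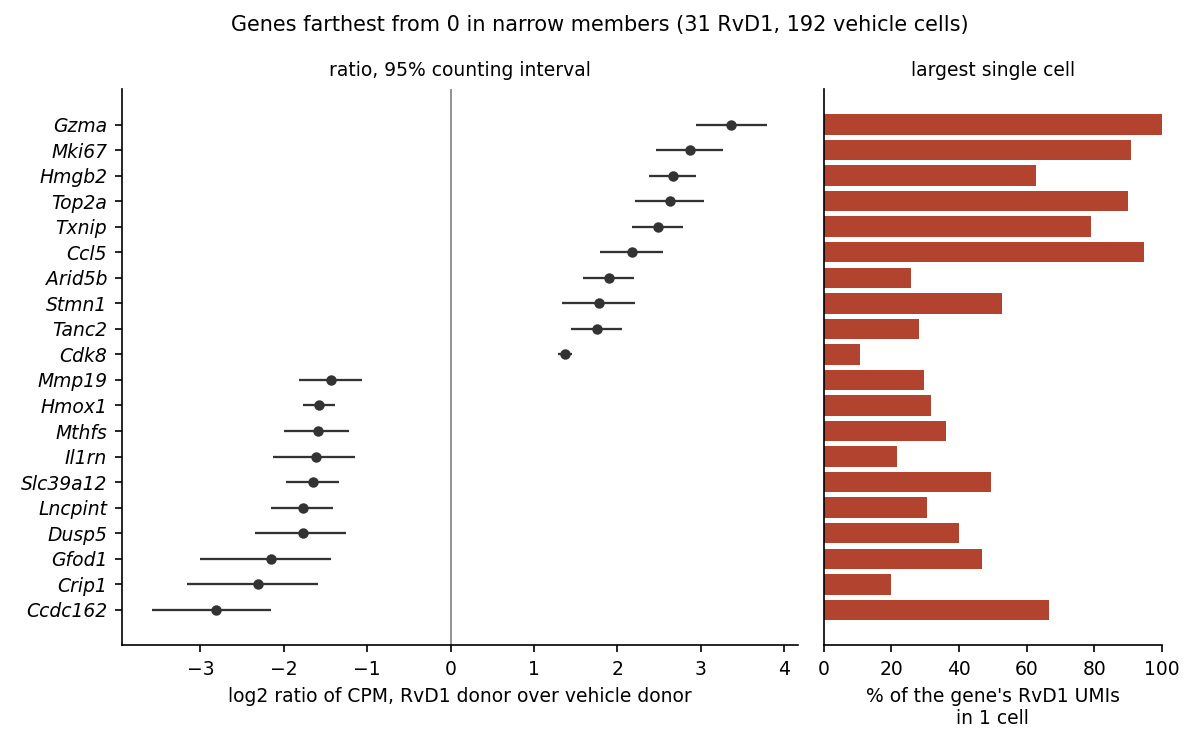
Log2 ratio of CPM, RvD1 donor over vehicle donor narrow members, with 95% counting intervals (left), and the percent of each gene's RvD1 UMIs that came from its largest cell (right), for the 10 higher and 10 lower genes farthest from 0. Of the higher genes, Cdk8, Arid5b and Tanc2 are the ones with under 30% in 1 cell, and of the lower genes Ccdc162 is the one with over 50%.

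Of the 10 higher genes, Cdk8, Arid5b and Tanc2 had under 30% of their RvD1 UMIs in 1 cell. Cdk8, the kinase of the Mediator complex (chromosome 5, 146231230 to 146302874), stood at 3805 CPM in RvD1 and 1473 CPM in vehicle narrow members (log2 ratio 1.37, 1.28 to 1.45) and was counted in all 31 RvD1 and all 192 vehicle cells. Its level was tied to depth in both libraries: it was 9850 CPM (RvD1) and 4548 CPM (vehicle) in cells under 5000 UMIs, and 2371 CPM (RvD1) and 1412 CPM (vehicle) in cells of 20000 or more, where the log2 ratio was 0.75. Arid5b, a chromatin protein, stood at 326.9 CPM in RvD1 and 87.5 CPM in vehicle narrow members (log2 ratio 1.90, 1.59 to 2.20) and had UMIs in 12 of 31 RvD1 and 114 of 192 vehicle cells. Tanc2, a scaffold protein, stood at 318.2 CPM and 93.9 CPM in RvD1 and vehicle narrow members (1.76, 1.45 to 2.06). In cells of 20000 or more UMIs the log2 ratios of Arid5b and Tanc2 were 2.15 and 1.74, whereas among members of 1000 to 10000 UMIs that of Arid5b was -1.12 and over all members thinned to 1000 UMIs it was 0.04. A single cell of 23494 UMIs held 38.2% of the Arid5b and 51.7% of the Tanc2 UMIs of the deep RvD1 cells, and without it their log2 ratios there were 1.65 and 0.88.

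Of the 10 lower genes, Ccdc162 alone had over 50% of its RvD1 UMIs in 1 cell, and Hmox1 was the most abundant of the 10 in vehicle members. Hmox1 encodes heme oxygenase, which breaks down heme, and lies on chromosome 8 at 75093621 to 75100589 (GRCm38). It stood at 639.4 CPM in RvD1 and 1902 CPM in vehicle narrow members (log2 ratio -1.57, -1.77 to -1.38). Per cell it had a median of 74.6 CPM (lowest 0, highest 2002) over the 31 RvD1 cells, and a median of 1474 CPM (lowest 0, highest 7480) over the 192 vehicle cells. The distributions overlapped over their low and middle range, and no RvD1 cell reached the upper quartile of the vehicle cells (2741 CPM). The order was the same in each range of depth: 118.7 CPM (RvD1) and 498.4 CPM (vehicle) under 5000 UMIs, 791.2 and 1394 CPM from 5000 to under 20000, and 666.5 and 1954 CPM at 20000 or more. The values under 5000 rest on few Hmox1 UMIs, in 16 RvD1 cells with 42131 UMIs of all genes and 5 vehicle cells with 16050. In cells of 20000 or more UMIs the Hmox1 medians per cell were 407.6 CPM (6 RvD1 cells) and 1734 CPM (158 vehicle cells). The deepest RvD1 cell held 31.7% of the RvD1 Hmox1 UMIs, and 54.3% of those in cells of 20000 or more. The log2 ratio of Hmox1 was -1.48 in narrow members with Malat1 and -1.94 without the deepest cell of each library.

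The ferritin genes followed the same order with smaller ratios in the sums, and with medians per cell that lay closer together. Fth1, the ferritin heavy chain that stores iron, stood at 12150 CPM in RvD1 and 19440 CPM in vehicle narrow members (log2 ratio -0.68, -0.72 to -0.63). Ftl1, the ferritin light chain, stood at 5633 CPM in RvD1 and 9489 CPM in vehicle narrow members (-0.75, -0.82 to -0.69). Per cell the medians over all narrow members were 17090 CPM (RvD1) and 18220 CPM (vehicle) for Fth1, and 7342 CPM (RvD1) and 8531 CPM (vehicle) for Ftl1. In cells of 20000 or more UMIs the medians were 13550 CPM (6 RvD1 cells) and 18700 CPM (158 vehicle cells) for Fth1, and 6361 and 8663 CPM for Ftl1, and the ranges overlapped. Summed over cells of 20000 or more UMIs Fth1 was at 11930 CPM (RvD1) and 19620 CPM (vehicle), and Ftl1 at 5549 CPM (RvD1) and 9640 CPM (vehicle). In cells under 5000 UMIs the gap was small or turned round: Fth1 was at 20180 CPM (RvD1) and 23680 CPM (vehicle), and Ftl1 at 11870 CPM (RvD1) and 11280 CPM (vehicle). Over the antioxidant and metal list, 15 of 22 genes were described, and 2 were at least 2-fold lower (Hmox1 and Gclc, which makes the precursor of glutathione, 115.7 CPM in RvD1 and 250.6 CPM in vehicle members) and none at least 2-fold higher, where 2.21% of all described genes were 2-fold lower. The list summed to 2.73% of UMIs in RvD1 and 4.11% in vehicle narrow members, with a median log2 ratio of -0.25 beside -0.07 for all genes. The metallothionein gene Mt1 stood at 3180 CPM in RvD1 and 3768 CPM in vehicle members, and the peroxide-reducing enzyme gene Prdx1 at 1267 and 1441 CPM.

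**Figure D4:**
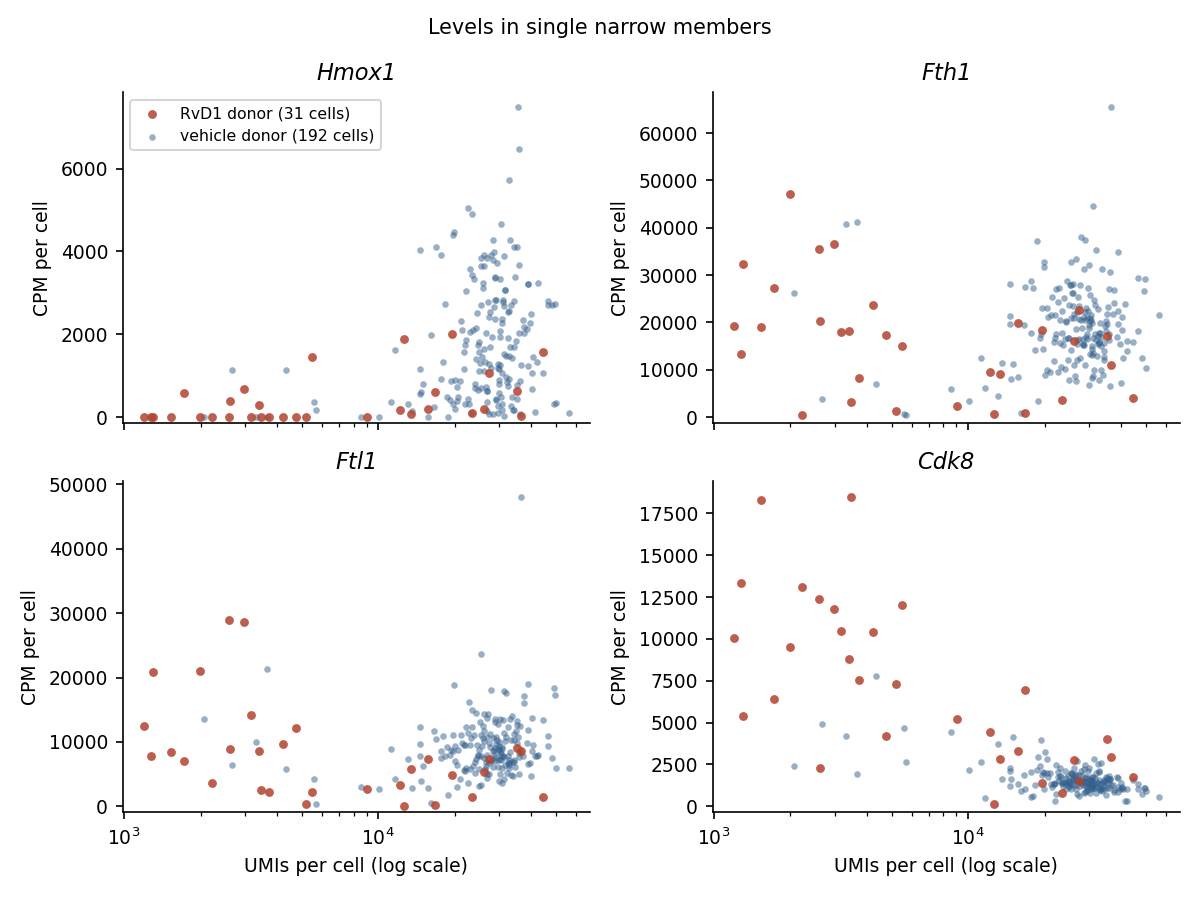
CPM per cell of Hmox1, Fth1, Ftl1 and Cdk8 against UMIs per cell (log scale) in narrow members, RvD1 donor cells (31) and vehicle donor cells (192). Hmox1 in RvD1 cells stays at or below 2002 CPM at every depth, while vehicle cells reach 7480 CPM, and Cdk8 is highest in the shallow cells of both libraries.

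The other lower genes included regulators of inflammation and signalling. Il1rn, the interleukin-1 receptor antagonist (chromosome 2, 24336853 to 24351494), stood at 107.0 CPM in RvD1 and 328.7 CPM in vehicle narrow members (log2 ratio -1.62, -2.13 to -1.15), with UMIs in 17 of 31 and 175 of 192 cells. Mmp19, a matrix metalloproteinase, stood at 176.5 CPM in RvD1 and 476.3 CPM in vehicle members (-1.43, -1.82 to -1.07). Dusp5, a phosphatase that switches off ERK in the nucleus, stood at 86.8 CPM in RvD1 and 296.7 CPM in vehicle members (-1.77, -2.35 to -1.25), and Mthfs, an enzyme of folate metabolism, at 167.8 and 506.2 CPM (-1.59, -1.99 to -1.22). Slc39a12, a zinc transporter, stood at 245.9 CPM in RvD1 and 771.0 CPM in vehicle members (-1.65, -1.98 to -1.34), and 1 RvD1 cell held 49.4% of its UMIs. Lncpint, a long noncoding RNA, stood at 179.4 CPM in RvD1 and 612.6 CPM in vehicle members (-1.77, -2.16 to -1.41). Gfod1 (-2.16, -3.00 to -1.43) and Ccdc162 (-2.82, -3.58 to -2.16) had 15 and 18 UMIs left in RvD1 narrow members. The order was turned round for Il1rn over all members thinned to 1000 UMIs (log2 ratio 0.11) and for Mthfs over members of 1000 to 10000 UMIs (0.56).

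The genes of alveolar macrophage identity had ratios on both sides of 0. Of the 23 genes, 21 were described, none was 2-fold higher or lower, 12 had a ratio above 0 and 9 below, and the median log2 ratio was 0.04 in narrow members and -0.30 over all members. Pparg, the nuclear receptor that drives the programme, stood at 306.7 CPM in RvD1 and 165.0 CPM in vehicle narrow members (log2 ratio 0.89, 0.59 to 1.19). Fabp4, a fatty acid carrier, stood at 384.8 CPM in RvD1 and 258.9 CPM in vehicle members (0.57, 0.30 to 0.83). Lpl, lipoprotein lipase, went the other way at 2271 CPM in RvD1 and 3152 CPM in vehicle members (-0.47, -0.58 to -0.37), as did Csf2rb, the shared beta chain of the GM-CSF receptor, at 442.7 and 593.1 CPM (-0.42, -0.67 to -0.19). The order of Pparg and Fabp4 changed with depth. From 5000 to under 20000 UMIs both were lower in RvD1, Pparg at 127.3 CPM (RvD1) and 228.9 CPM (vehicle), Fabp4 at 154.6 and 226.7 CPM. Both were higher in RvD1 under 5000 UMIs and at 20000 or more (6 RvD1 cells), there at 413.3 and 159.5 CPM for Pparg and 552.8 and 262.6 CPM for Fabp4. A single RvD1 cell held 30.8% of the Fabp4 UMIs. The mannose receptor gene Mrc1 (1386 CPM in RvD1 and 1308 CPM in vehicle members), the tetraspanin gene Cd9 (3697 and 3561 CPM), and the transcription factor genes Cebpb (1470 and 1574 CPM) and Spi1 (529.5 and 537.9 CPM) had counting intervals that reached 0. Siglecf, the sialic acid lectin used to sort these cells, stood at 66.5 CPM in RvD1 and 83.7 CPM in vehicle members.

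Few genes of the lists for what these cells do in the air space passed 2-fold, beside 2.65% higher and 2.21% lower over all described genes, whose median was -0.07. Of 17 lipid and surfactant genes described, 1 was at least 2-fold higher, Ch25h, which makes an oxysterol (199.6 CPM in RvD1 and 75.8 CPM in vehicle members, log2 ratio 1.40), and the list median was -0.11. Plin2, a lipid droplet coat protein, stood at 1366 CPM in RvD1 and 1469 CPM in vehicle members, Abcg1, a cholesterol exporter, at 810.1 and 933.0 CPM, and the lipid scavenger receptor gene Cd36 at 494.7 and 623.9 CPM. Of 22 lysosomal genes 1 was at least 2-fold higher, the tetraspanin gene Cd63 (228.6 CPM in RvD1 and 111.7 CPM in vehicle members). A ratio below 0 was seen in 19 of the 22, beside 1028 of all 1813 described genes. The lysosomal median was -0.27, and -0.18 in narrow members with Malat1. The protease gene Ctsd stood at 2242 CPM in RvD1 and 2533 CPM in vehicle members and Psap, the saposin precursor, at 1325 and 2018 CPM. None of 12 phagocytosis and efferocytosis genes was 2-fold higher or lower (median -0.09), among them Tyrobp, an adaptor of activating receptors, at 891.1 CPM in RvD1 and 819.4 CPM in vehicle members. None of 33 oxidative phosphorylation genes (median 0.03) and none of 9 glycolysis and hypoxia genes (median -0.33) was 2-fold higher or lower. A ratio below 0 was seen in 15 of the 33 and in 8 of the 9.

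Among signals that macrophages send, single genes went in different directions. Of 22 cytokines and chemokines 8 were described, none was at least 2-fold higher, and Il1rn and Il1b were at least 2-fold lower (median -0.22). Over all members the list went the other way, with 12 described, 2 at least 2-fold higher, none 2-fold lower and a median of 0.12. Il1b, the precursor of interleukin-1 beta, stood at 63.7 CPM in RvD1 and 202.1 CPM in vehicle narrow members (log2 ratio -1.67, -2.35 to -1.06). Over all members it stood at 830.4 CPM in RvD1 and 416.2 CPM in vehicle members (1.00), and 94.8% of its RvD1 UMIs came from the 9 cells with other lineages' transcripts. Cxcl2, a neutrophil chemoattractant, stood at 1244 CPM in RvD1 and 2012 CPM in vehicle members (-0.69, -0.84 to -0.55), with UMIs in 13 of 31 RvD1 and 154 of 192 vehicle cells. Tnf, tumour necrosis factor, stood at 717.5 CPM in RvD1 and 500.7 CPM in vehicle members (0.52, 0.33 to 0.71), and 1 RvD1 cell held 37.9% of its UMIs. The order of Tnf changed with depth. It was higher in RvD1 only in cells of 20000 or more UMIs, at 1090 CPM (6 RvD1 cells) and 490.6 CPM (158 vehicle cells). From 5000 to under 20000 UMIs it stood at 336.5 CPM (RvD1) and 603.7 CPM (vehicle), and under 5000 at 0 and 685.4 CPM. Ccl6, a chemokine of resident macrophages, stood at 2824 CPM in RvD1 and 1962 CPM in vehicle members (0.53, 0.43 to 0.62). None of 13 NF-kB target genes was 2-fold higher or lower. A ratio below 0 was seen in 12 of the 13, beside 1028 of all 1813 described genes. Their median was -0.16, and -0.011 in narrow members with Malat1. The hyaluronan receptor gene Cd44, among the 12, stood at 2002 CPM in RvD1 and 3299 CPM in vehicle members.

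No described gene of early transcription or heat shock was at least 2-fold higher in RvD1 narrow members. Of 15 immediate early genes, 1 was at least 2-fold lower, the stress transcription factor gene Atf3 (92.6 CPM in RvD1 and 224.4 CPM in vehicle members), and the median was -0.38. Dusp1 (425.3 CPM in RvD1 and 352.1 CPM in vehicle members) and Klf6 (645.2 and 410.7 CPM) had ratios above 0, but 1 cell of 23494 UMIs held 76.2% and 66.4% of their RvD1 UMIs, and without it their log2 ratios were -1.70 and -0.82. None of 9 heat shock genes was 2-fold higher or lower (median -0.35). A ratio below 0 was seen in 8 of the 9, beside 1028 of all 1813 described genes, among them the chaperone gene Hspa5 (578.6 CPM in RvD1 and 802.2 CPM in vehicle members). The chaperone gene Hspa8, at 1311 CPM in RvD1 and 1207 CPM in vehicle members, was the 1 above 0. No interferon-stimulated gene reached a mean of 100 CPM over both libraries, and their sum was 0.0281% of UMIs in RvD1 and 0.0273% in vehicle members. The most abundant, Irf1, stood at 104.2 CPM in RvD1 and 76.4 CPM in vehicle members. MHC class II genes had a median of 0.24 over 7 genes with none at least 2-fold different, and MHC class I genes a median of -0.39 over 4 genes. The 80 cytosolic ribosomal protein genes had a median of -0.09 and the 12 mitochondrial genes one of -0.05, with none at least 2-fold different.

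Of the receptors reported for resolvins, none reached a mean of 100 CPM, and Fpr1 and Fpr2 were the ones with more than a few UMIs in both libraries. Fpr2, which encodes the mouse counterpart of the human lipoxin and resolvin receptor, stood at 75.2 CPM (26 UMIs) in RvD1 and 115.9 CPM (613 UMIs) in vehicle narrow members (log2 ratio -0.62, -1.25 to -0.06). Its paralogue Fpr1 stood at 104.2 CPM (36 UMIs) in RvD1 and 56.7 CPM (300 UMIs) in vehicle members (0.88, 0.34 to 1.38). Gpr18, reported as a receptor of another resolvin, had 3 UMIs in RvD1 and 8 UMIs in vehicle narrow members, Cmklr1 had 0 and 2 UMIs, Lgr6 had 0 and 1, and Gpr37 had none in either. The enzymes and cofactors that make eicosanoids had 4 genes described and none at least 2-fold different, among them Alox5ap, which presents arachidonic acid to 5-lipoxygenase, at 251.7 CPM in RvD1 and 365.7 CPM in vehicle members.

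Dividing cells were few. Counting cells with at least 5 UMIs of Mki67 and Top2a, 1 of 40 RvD1 donor members (2.50%, 0.0633 to 13.2%) and 11 of 219 vehicle donor members (5.02%, 2.53 to 8.81%) met the limit. That limit is in raw UMIs, and the members had medians of 10006.5 UMIs (RvD1) and 27396 UMIs (vehicle). After thinning to 1000 UMIs, 4 of the 40 RvD1 and 4 of the 219 vehicle donor members had at least 1 UMI of either gene, so the order of the shares turned round at equal depth. The cell cycle list had 6 genes described in narrow members, 5 of them at least 2-fold higher in RvD1 (median 2.21), and for each of the 5 the same deepest cell held over 50% of the RvD1 UMIs. Shallow cells also held some of these transcripts. Under 5000 UMIs Hmgb2 stood at 640.9 CPM (16 RvD1 cells) and 0 CPM (5 vehicle cells), and Stmn1 at 569.7 and 186.9 CPM. From 5000 to under 20000 UMIs Mki67, Top2a and Stmn1 were at 0 CPM in RvD1 narrow members.

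The genes named above were then read in other donor cells, to see which ratios alveolar macrophages shared with them. The comparisons use different cells of the same 2 libraries. Cdk8 was higher in the RvD1 library in all 4 other classes, with log2 ratios of 1.04 in neutrophils, 0.55 in classical monocytes, 0.91 in C1q-expressing macrophages and 0.69 in dendritic cells. Lncpint was lower in all 4 (-1.40, -1.15, -0.83 and -0.90 in the same order), and so was Hmox1 (-1.19, -0.34, -0.47 and -0.63). Fth1 and Ftl1 had ratios nearer to or above 0 there: Fth1 had log2 ratios of -0.06, 0.04, 0.38 and 0.52, and Ftl1 of 0.04, 0.24, 0.41 and 0.10. Mmp19 went the other way, at 1.79 in neutrophils, 0.98 in classical monocytes, 0.90 in C1q-expressing macrophages and 0.24 in dendritic cells. Whether these differences between classes exceed the spread between animals could not be tested with 1 library per group.

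**Figure D5:**
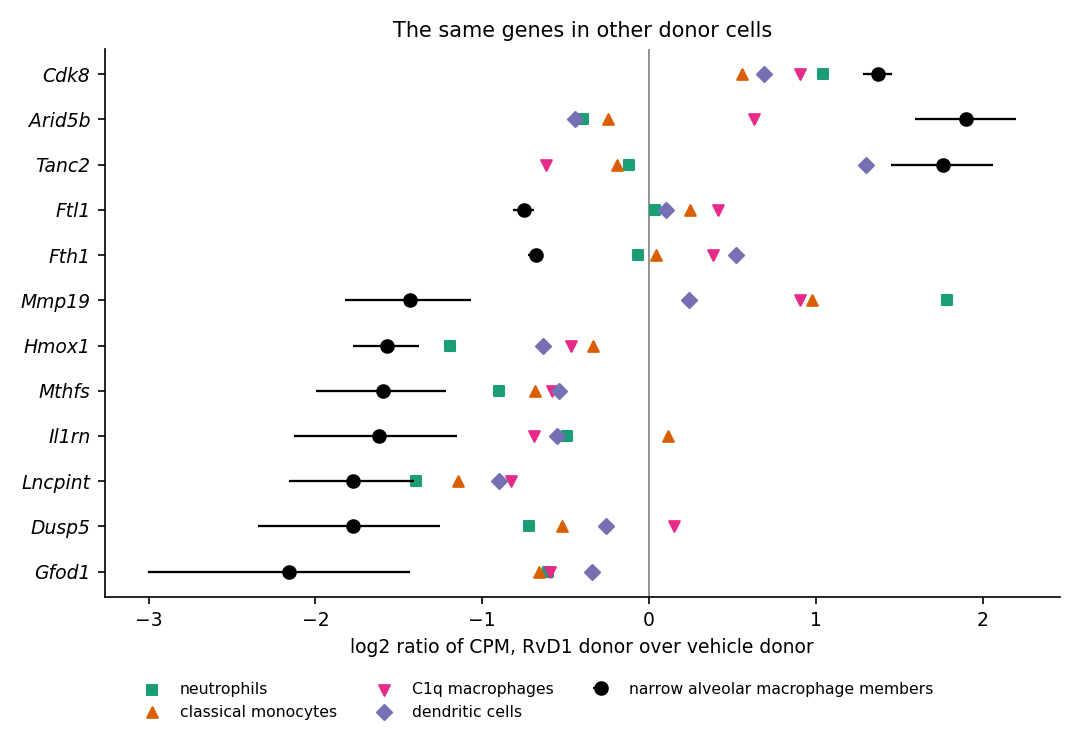
Log2 ratio of CPM, RvD1 donor over vehicle donor, in narrow alveolar macrophage members (black, with 95% counting intervals) and in 4 other donor cell classes. Cdk8 lies right of 0 and Lncpint, Hmox1, Mthfs and Gfod1 left of 0 in all 5, whereas Fth1, Ftl1 and Mmp19 lie left of 0 in alveolar macrophages and at or right of 0 in most of the others.

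The recipient libraries held only 8 members. The 5 RvD1 recipient members had 4455, 8048, 9701, 38678 and 47190 UMIs, and the cell of 8048 UMIs had 417 UMIs of S100a8 and S100a9 in sum and 4 marker UMIs. The 3 vehicle recipient members had 17083, 24728 and 24771 UMIs. Their identity list made up 1.06 to 1.67% of UMIs in the RvD1 cells and 1.35 to 2.12% in the vehicle cells, within the range of the donor members. Summed over narrow recipient members, Hmox1 stood at 1720 CPM (4 RvD1 cells) and 2313 CPM (3 vehicle cells), Lncpint at 160.0 and 751.0 CPM, and Cdk8 at 1440 and 1111 CPM, each in the same order as in donor narrow members. Other genes were in the opposite order in recipient narrow members. Among them were Cxcl2 (989.8 CPM in RvD1 and 781.0 CPM in vehicle), Crip1 (709.8 and 270.3 CPM) and Malat1 (6249 and 9282 CPM). Whether these 8 cells came from the recipient or were donor cells sorted with recipient cells was not tested.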

How the data were processed

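The single-cell kit was 10x Genomics 3' v3, per the labels' protocols. The authors deposited unnormalised UMI counts of 32285 genes for each barcode, made with Cell Ranger 7.0.1 (RvD1 libraries) and 6.1.1 (vehicle libraries), per the file headers. The submitters' processing notes name Seurat 4.0.0 and the build mm10. Whether intronic reads were counted, and whether doublets or free RNA were removed before deposit, is not given in the labels and headers used here.

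Here the rule given in the report chose members from the counts. UMIs were summed per library and scaled to CPM by the members' own total, and the log2 ratio of RvD1 donor over vehicle donor was taken with no pseudocount. A gene at 0 in 1 library got no ratio unless a floor of 3 counts gave a bound. Genes were described at a mean of 100 CPM over both libraries, and counts of genes use 2-fold. Intervals are 95% exact binomial (ratios and shares) and cover counting error only. The precision is set by 345641 UMIs of RvD1 and 5290675 UMIs of vehicle donor narrow members. Calculations used Python 3.11.15, numpy 2.4.6, scipy 1.17.1, pandas 2.3.3 and scanpy 1.11.5 (Scrublet per library, expected rate 0.8% per 1000 cells, calls kept in the main result), and ratios were tested on simulated data. Positions are from GENCODE M21.

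Other donor cells were classed by UMIs: neutrophils (Csf3r, Cxcr2, Retnlg and Mmp8, at least 4), classical monocytes (Ly6c2, Ccr2 and F13a1, at least 4, with at most 1 of Csf3r and Cxcr2), C1q-expressing macrophages (C1qa, C1qb and C1qc, at least 4) and dendritic cells (Flt3, Cd209a and Zbtb46, at least 2, with at least 20 of H2-Aa, H2-Ab1 and H2-Eb1). Named genes are the 10 higher and 10 lower genes whose interval lay farthest from 0 (without mitochondrial, ribosomal, haemoglobin, sex-linked, receptor-segment, unnamed, rule and neutrophil marker genes), the 4 most abundant members of each of 29 lists, the identity genes, the resolvin receptors and the 15 genes most specific to members in the vehicle donor library. Ch25h, Cd63, Atf3 and Gclc were added after their values were seen. The members and lists were chosen with earlier results of these data known.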

Additional observations from a re-analysis of the deposited data

How the results depend on the processing

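The counts of genes over all members (51 higher, 52 lower) stayed within 1.5 times without called doublets, with free RNA subtracted, without the deepest member of each library, with a marker sum of 8, with a mitochondrial limit of 5%, with recipient members added and without mitochondrial, ribosomal, haemoglobin and neutrophil genes. They moved to 149 higher and 278 lower with cells thinned to 1000 UMIs, 161 and 413 in members of 1000 to 10000 UMIs (20 RvD1 and 14 vehicle cells), 109 and 92 at a mean of 50 CPM, 20 and 23 at 200 CPM, 2313 and 833 with no filter but 1 UMI in both libraries, 135 and 225 at 1.5-fold, and 19 and 10 at 3-fold. With cells weighted equally 165 were lower, and in narrow members of 20000 or more UMIs (6 RvD1 and 158 vehicle cells) 103 were higher. Narrow members gave 48 and 40, with Malat1 74 and 37, and without the deepest cell of each library 44 and 51. Members numbered 23 in the RvD1 donor library at a marker sum of 8, and 11 (RvD1) and 110 (vehicle) after thinning. All settings on narrow members were chosen after seeing the data.

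Over 17 list medians and 303 settings, 216 moved by under 0.2 on the log2 scale, and 32, over 13 lists, had the opposite sign. For a median past 1.5-fold the sign changed once (MHC class II, -0.17 in narrow members of 20000 or more UMIs). Over 53 genes and 784 settings, 473 stayed within the counting interval, and 111, over 34 genes, had the opposite sign. Of these, 32 were of genes past 2-fold over all members. In narrow members, in those with Malat1, without the deepest cells and at 20000 or more UMIs their values were, in that order, -2.31, -2.45, -2.12 and -3.41 for Crip1, -0.55, -0.35, -1.52 and -0.022 for Ifi27l2a, -1.78, -1.61, -1.48 and -2.35 for Ifitm2, and -0.87, -1.70, -0.52 and -1.14 for Ifitm3. At 20000 or more UMIs Ccl5 was at -1.77, Gzma at -0.62 and Ms4a6c at -0.99, and with Malat1 Plac8 was at -0.47. In members of 1000 to 10000 UMIs Arid5b was at -1.12, Crip1 at -1.96, Mthfs at 0.56, Plac8 at -0.025 and Txnip at -1.37. At a marker sum of 8 Ccl5 was at -3.75 and Gzma at -1.73, and thinned to 1000 UMIs Ifi27l2a was at -0.87. Without the deepest member Mki67 was at -0.67 and Top2a at -0.97, and in narrow members at -0.003 and -0.11. The cause was not tested.

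No paired analysis was possible because each group is 1 library. The main limits are that single library per group, the software version that goes with treatment, and the 31 narrow RvD1 donor cells, of which 6 reached 20000 UMIs.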

Other observations

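The genes that most set members apart from all other cells of the vehicle donor library included several outside the usual marker set of alveolar macrophages. They were the potassium channel genes Kcnn3 (log2 ratio of members over other cells 6.31) and Kcnip4 (5.91, a potassium channel partner), the serotonin receptor gene Htr2c (6.20), the leptin receptor gene Lepr (5.96), the arginine transporter gene Slc7a2 (5.85), the keratin gene Krt19 (6.22) and Erc2 (6.16), beside Cidec (6.45), a lipid droplet protein, and Fabp1 (6.13), a fatty acid carrier. Members were chosen by their transcripts, so these ratios describe the choice and are not tested. In narrow members Htr2c stood at 633.6 CPM in RvD1 and 274.1 CPM in vehicle cells (log2 ratio of RvD1 over vehicle 1.21, 1.00 to 1.42) and Kcnip4 at 3784 CPM in RvD1 and 1724 CPM in vehicle cells (1.13, 1.05 to 1.22). Both had UMIs in 13 and 14 of 31 RvD1 cells, against 161 and 181 of 192 vehicle cells.

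The unnamed model Gm13266, 17613 bases beyond the end of Slc39a12 on the same strand of chromosome 2 (14512591 to 14542811, GRCm38), had 2 UMIs in RvD1 donor narrow members (5.79 CPM, in 2 of 31 cells) and 1536 UMIs in vehicle donor narrow members (290.3 CPM, in 142 of 192 cells), a log2 ratio of -5.65 (-8.70 to -3.79). The recipient members split the same way by treatment, with 0 UMIs in the RvD1 cells and 19 UMIs (285.4 CPM) in the vehicle cells, so the model had almost no UMIs in either library counted with the newer Cell Ranger version. Treatment and version cannot be told apart here, and whether the order of Slc39a12 shares a source with that of Gm13266 was not tested.

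Transcripts specific to members were also present at low levels in the remaining donor cells. Lpl stood at 8.89 CPM in RvD1 and 55.2 CPM in vehicle donor cells that were not members, Kcnip4 at 1.38 and 26.7 CPM, and Ear1 at 0.413 and 7.51 CPM, in the same order as the share of members in the 2 libraries.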
